A study of Mus musculus with 6 samples.

Results

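The genes described here are the nuclear genes of the mitochondrial respiratory chain and ATP synthase, followed in lineage-negative (Lin-) haematopoietic stem and progenitor cells of mice that lack Stag2 and of wild-type mice. Members were chosen by name: every gene symbol beginning Ndufa, Ndufb, Ndufc, Ndufs, Ndufv, Uqcr, Cox4, Cox5, Cox6, Cox7, Cox8 or Atp5, together with Sdha, Sdhb, Sdhc, Sdhd and Cyc1. The rule took 93 of the 18011 gene symbols in the count tables, and 90 of them stood in all 6 tables. By complex they were 45 genes of complex I (7 core subunits, 29 accessory subunits and 9 assembly factors), 4 of complex II, 9 of complex III, 19 of complex IV and 16 of ATP synthase, also called complex V. The 19 of complex IV included 7 tissue isoforms and 1 factor of supercomplexes. Single-cell RNA sequencing gave counts of unique molecular identifiers (UMIs), each standing for 1 captured mRNA 3′ end, in 3 samples labelled Stag2 KO (knockout) and 3 labelled Stag2 wt (wild type). Stag2 is a gene for one of the proteins of cohesin, which encircles DNA, ties replicated chromatids and extrudes loops. The labels name no strain, age, sex, treatment or method of removing Stag2. The series' design text counts 3 mice per genotype, and each library is taken as 1 mouse. The question was which members differed between the genotypes within each cell type, with Cox6a2 in plasmacytoid dendritic cells as a named case.

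The respiratory chain passes electrons from NADH through complex I, or from succinate through complex II, by way of complex III and cytochrome c to oxygen at complex IV, and ATP synthase uses the resulting proton gradient to make ATP. Most subunits are encoded in the nucleus and imported, while a few are encoded in mitochondrial DNA, so the assembled complexes draw on both genomes. Some complex IV subunits exist as tissue isoforms: Cox6a2 is the heart and muscle form of the subunit that Cox6a1 encodes in most tissues, and Cox6b2 is a form of Cox6b1 best known from testis. Plasmacytoid dendritic cells are the blood cells known for strong type I interferon secretion.

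The knockout libraries held 4315, 2385 and 3639 cells after filtering and the wild-type libraries 2412, 4258 and 6407, with median depths of 5742 to 5933 UMIs per cell in the knockout and 3458 to 4892 in the wild type. Stag2 itself stood at 24.96, 23.8 and 20.04 counts per 1000000 UMIs (CPM) in the knockout and at 53.2, 43.1 and 42.8 in the wild type (log2 fold change -1.05, SE 0.12, adjusted p = 0.00064, edgeR quasi-likelihood test with Benjamini-Hochberg adjustment). Between libraries, 391 of 25237 cell barcodes were shared. The knockout samples and wild type 1 carry 1 prefix in their title codes, and wild types 2 and 3 each carry another, whose meaning is not given. Cells were clustered and named from marker genes, and 10 classes had enough cells in every library for a test. The class names below stand for cells like that type, so "pDC-like" is plasmacytoid dendritic cell-like, "cDC-like" is conventional dendritic cell-like and "basophil-like" covers basophil and mast cell markers. The pDC-like cluster raised 16 of 17 plasmacytoid markers at least 2-fold over all cells, Siglech among them, and also 6 of 10 lymphoid progenitor markers. The cDC-like cluster raised 13 of 15 conventional dendritic markers, and also 9 of 17 plasmacytoid and 9 of 14 monocyte markers.

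Cox6a2 itself had no promoter entry. Promoter sequence is shown for other members named below, first Cox6a1, the general counterpart of Cox6a2. Then come Cox6b2, the isoform lower in cDC-like and stem cell-like cells, and Ndufs8, the complex I core subunit lower in pDC-like cells. Sequences are from RefSeq (GRCm38.p6), all on the minus strand and trimmed to bases outside annotated exons, at chr5:115348982-115349129, chr7:4753095-4753225 and chr19:3912775-3913024.
Cox6a1: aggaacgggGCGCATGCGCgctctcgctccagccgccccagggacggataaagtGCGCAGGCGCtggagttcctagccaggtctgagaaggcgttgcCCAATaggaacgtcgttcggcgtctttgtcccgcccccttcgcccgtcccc
Cox6b2: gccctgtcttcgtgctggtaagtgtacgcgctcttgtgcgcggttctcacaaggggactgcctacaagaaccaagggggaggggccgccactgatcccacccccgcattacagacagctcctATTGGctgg
Ndufs8: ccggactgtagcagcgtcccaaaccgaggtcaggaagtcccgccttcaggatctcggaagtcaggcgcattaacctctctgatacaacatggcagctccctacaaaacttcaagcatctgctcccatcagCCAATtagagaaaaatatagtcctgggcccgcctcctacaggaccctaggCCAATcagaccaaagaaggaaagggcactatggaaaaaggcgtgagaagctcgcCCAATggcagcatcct
Capitals mark matches to the NRF1 motif (GCGCA and GCGC with any 1 base between them) and the CCAAT box (ATTGG on the other strand). NRF1 is a transcription factor known for driving nuclear respiratory genes. Promoter entries matched 76 of the 93 members. In the 250 bases before the start, on both strands and with overlapping matches of different motifs each counted, the NRF1 motif was found in 14 members (18.4%) and in 4.23% of 27025 genes. An ETS motif, CCGGAAG, was found in 14 members (18.4%) against 7.83% of all genes, and CCAAT in 46.1% against 37.5%. TATAAA was found in 7.89% of members against 14.3%, and the YY1 motif AAGATGGC in 2.63% against 1.83%. A match describes letters only and was not linked to any change in expression.

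Over all kept cells, nearly all members had similar levels in both genotypes. Of 90 members tested, 2 were lower in the knockout and 0 were higher by edgeR, against 10.4% of all 12635 genes called in either direction and 6.89% called lower, and 4 members were lower at an unadjusted p under 0.05. The median log2 fold change was -0.01 for the members and 0.01 for all genes. Cox6a2 stood at 26.4, 50.7 and 30.1 CPM in the knockout and at 104.6, 98.7 and 88.9 CPM in the wild type. All 3 knockout values lay below all 3 wild-type values (log2 fold change -1.49, SE 0.21, adjusted p = 0.0019, edgeR). Sdhb, the iron-sulfur subunit of complex II, stood at 162, 163 and 169 CPM against 185, 198 and 192 CPM, again without overlap (log2 fold change -0.26, SE 0.07, adjusted p = 0.038, edgeR). The Sdhb call ended when any 1 library was left out, with adjusted p from 0.056 to 0.16, which left Cox6a2 as the 1 call. In such sums over cell types, fewer cells of a type and less RNA per cell cannot be told apart. The members together took 31142 ± 679 CPM in the knockout and 30775 ± 1922 CPM in the wild type (SD, n = 3), and the groups overlapped. Cox7b2, Cox8c and Ndufa4l2 had 3, 1 and 1 UMIs over all libraries and were not tested.

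Cox6a2 had its highest level in pDC-like cells and was lower there in every knockout sample. The gene (ENSMUSG00000030785) lies on the minus strand at chr7:128205435-128206387 (GRCm38). Its pDC-like level was 674, 909 and 683 CPM in the knockout and 1554, 1423 and 1876 CPM in the wild type. The groups did not overlap, and the highest knockout value was well under the lowest wild-type value. The log2 fold change was -1.13 (SE 0.13, adjusted p = 5.3e-05, edgeR), and leaving out any 1 library kept it between -1.30 and -1.02. With the title prefix as a covariate it was -1.13. The knockout samples share their prefix with wild type 1 only, so that effect rests on 1 wild-type library. These sums came from 243, 198 and 229 knockout and 140, 249 and 251 wild-type cells, with 663 to 816 and 1076 to 1823 Cox6a2 UMIs. Cox6a1, the counterpart found in most tissues, stood in the same cells at 521, 554 and 535 CPM against 583, 542 and 673 CPM, and these ranges overlapped (log2 fold change -0.19, adjusted p = 0.43, edgeR). Siglech, the receptor that marks mouse plasmacytoid dendritic cells, was not lower: it stood at 1809, 1825 and 1587 CPM in the knockout against 1235, 1295 and 1026 CPM. Of the plasmacytoid markers, 5 of 16 tested were higher and 1 was lower in these cells. Cox6a2 overlaps Itgad on the opposite strand, and whether counting used strand is not given.

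**Figure D1:**
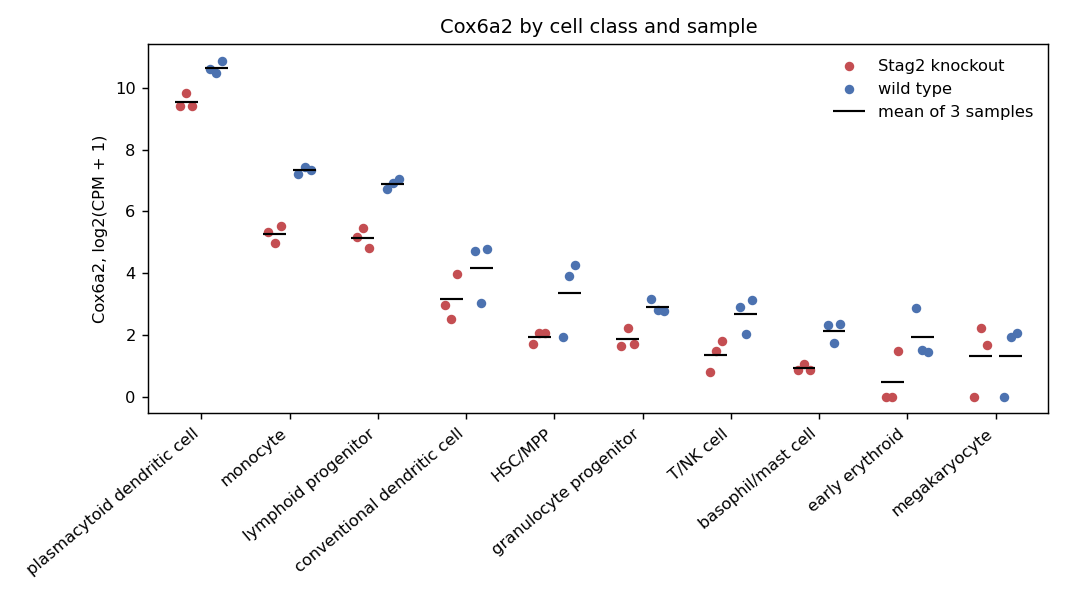
Cox6a2 in each of 10 cell classes, as log2(CPM + 1) of the summed UMIs of each sample (points: 3 knockout and 3 wild-type samples; bars: means). The pDC-like class is highest in both genotypes, and the knockout points lie below the wild-type points there, in the monocyte-like class and in the lymphoid progenitor-like class. They also do so near the floor in the granulocyte progenitor-like, basophil-like and T and NK-like classes.

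The difference also appeared as a share of cells. After each cell was thinned to 2000 UMIs, a Cox6a2 UMI was present in 53.5%, 58.9% and 52.1% of knockout pDC-like cells and in 77.6%, 73.5% and 76.8% of wild-type ones. The exact 95% binomial intervals of the samples, which cover counting error only, ran from 45.2% to 65.9% in the knockout and from 67.4% to 84.4% in the wild type. The means were 54.8% ± 3.58 and 76.0% ± 2.15 (SD, n = 3), a difference of -21.2 percentage points (exact permutation test, two-sided, p = 0.1, the smallest that 3 against 3 samples allow). Thinning left out 6 to 15 cells per sample. Without thinning the shares were 63.8%, 67.2% and 63.8% against 84.3%, 83.1% and 85.3%, at median depths of 4070 to 4399 and 3485 to 5013 UMIs. T and NK-like cells, which should lack the gene, had a thinned share of 0.275% to 0.725% in the knockout and 0.342% to 2.13% in the wild type. Their median depths were 2972 to 3253 and 2271 to 3302 UMIs, so the pDC-like shares stood far above that background in both genotypes. Of the UMIs of Cox6a1 and Cox6a2 together, Cox6a2 made up 58.2% ± 3.41 in knockout and 72.9% ± 0.611 in wild-type pDC-like cells (SD, n = 3), without overlap. Cox6a2 therefore gave most COX6A UMIs of this class in both genotypes.

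Cox6a2 was lower in lymphoid progenitor-like cells as well and, within the monocyte-like class, mainly in 1 dividing cluster. In lymphoid progenitor-like cells, which carried Dntt and Flt3, it stood at 34.6, 42.6 and 27.1 CPM in the knockout and at 106, 120.1 and 129.8 CPM in the wild type. No sample of one genotype reached the other's range (log2 fold change -1.88, SE 0.14, adjusted p = 5.0e-08, edgeR). It was the only member of 88 called in this class, against 3.17% of 8874 genes in either direction and 2.34% lower. The thinned share of cells with a Cox6a2 UMI was 6.12% to 7.23% in the knockout and 13.8% to 17.4% in the wild type, with 3 to 18 cells left out per sample, and without thinning it was 9.51% to 21.5% against 26.4% to 27.3%. In monocyte-like cells it stood at 39.0, 30.8 and 45.1 CPM against 147, 173 and 160.5 CPM, again apart (log2 fold change -2.06, SE 0.15, adjusted p = 3.2e-06, edgeR). It was again the only call among 88 members, against 2.92% of 8182 genes in either direction and 1.64% lower. Nearly all of these UMIs came from 1 dividing cluster led by histone and mitotic genes, with 57.3, 46.0 and 58.6 CPM in the knockout and 183, 213 and 199 CPM in the wild type. That cluster also raised 4 of 17 plasmacytoid markers. Siglech UMIs were present too: Cox6a2 UMIs per Siglech UMI were 0.558 in knockout and 1.91 in wild-type monocyte-like cells, 0.431 and 1.34 in pDC-like cells, and 10.2 and 20.5 in lymphoid progenitor-like cells. The part that admixed plasmacytoid cells or their free RNA take in the monocyte-like result was not tested.

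Cox6a2 was also called lower in granulocyte progenitor-like cells (2.09, 3.62 and 2.29 against 7.95, 5.97 and 5.81 CPM, log2 fold change -1.39, adjusted p = 0.013, edgeR) and in basophil-like cells (0.829, 1.08 and 0.82 against 3.94, 2.33 and 4.14 CPM, log2 fold change -2.03, adjusted p = 0.0054, edgeR). The T and NK-like level was 0.733 to 2.49 CPM in the knockout and 3.08 to 7.75 CPM in the wild type. The thinned share of cells with a Cox6a2 UMI in basophil-like cells, 0.207% to 0.385% in the knockout and 0.398% to 0.775% in the wild type, lay within or below that of T and NK-like cells, so no expression is read from that call. In granulocyte progenitor-like cells, with median depths of 12283 to 20440.0 UMIs before thinning, it was 0.207% to 1.45% and 0.842% to 2.47%. Cox6a2 UMIs per Siglech UMI in knockout and wild type were 0.579 and 2.75 in basophil-like, 0.5 and 2.77 in T and NK-like, and 1.85 and 5.23 in granulocyte progenitor-like cells. The wild-type ratios rest on few Siglech UMIs: 7, 6 and 3 in basophil-like, 6, 5 and 2 in T and NK-like, and 4, 2 and 7 in granulocyte progenitor-like samples. In wild-type pDC-like and lymphoid progenitor-like cells the ratio was 1.34 and 20.5. The part of free RNA in both calls was not tested. Without wild type 3 both calls ended (adjusted p = 0.10 and 0.052), and the granulocyte progenitor-like call also ended without knockout 1, knockout 3 or wild type 2. In cDC-like cells Cox6a2 had 6.89, 4.74 and 14.9 CPM against 25.3, 7.18 and 26.6 CPM, and the difference did not pass the test (log2 fold change -1.03, adjusted p = 0.22, edgeR). In the B cell-like class, too small for a test, no Cox6a2 UMI was counted in 11, 1 and 4 knockout cells, which for the largest sample allows a share of cells with a UMI of up to 28.5% (exact interval). That sample held 27426 UMIs in all, and the limit does not cover expression missed at this depth. The wild-type B cell-like cells held 14, 33 and 16 UMIs.

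By Pearson correlation of log2(CPM + 1) over 75 class and sample sums, which share libraries, the genes most like Cox6a2 were Ly6d (r = 0.918), Blnk (0.874), P2ry13 (0.856), Epha2 (0.854) and Sdc4 (0.842). Ly6d encodes a surface protein of lymphoid and plasmacytoid precursors, and Blnk an adaptor of B cell receptor signalling. In pDC-like cells Ly6d stood at 4078, 4259 and 4041 CPM in the knockout and at 4425, 5567 and 6407 CPM in the wild type, and Sdc4, a cell surface proteoglycan, at 99.5, 85.8 and 94.8 against 133, 138 and 119 CPM. Those ranges did not overlap. Blnk went the other way on average, at 175, 135 and 142 against 137, 134 and 104 CPM, with overlap. P2ry13 and Epha2 had overlapping ranges as well.

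Beyond Cox6a2, most members lay lower in knockout pDC-like cells than in wild-type ones, and the sums of complexes I, IV and V were apart. Of the 93 members 86 passed the filter on low counts in this class, 5 were called lower and 0 higher, against 3.77% of 7029 genes called and 2.49% called lower. Their median log2 fold change was -0.20, against 0.01 for all genes tested, and 79 of the 86 were below 0, against 49.2% of all genes. Levels of the 2 genotypes did not overlap, with the knockout lower, for 29 members, against 9.6% of all genes. Summed, the members stood at 28889, 28852 and 29553 CPM in the knockout and at 32137, 31894 and 35459 CPM in the wild type. The 3 knockout sums lay below all wild-type sums, with a ratio of means of 0.877. The count of 5 rests on few libraries: it was 1 without knockout 1, 2 or 3 or wild type 3, and that 1 was Cox6a2. It was 2 with library size alone as scaling, where the medians were -0.18 for the members and 0.03 for all genes. The fit with the title prefix as a covariate rests on wild type 1 alone, so its count is not given. The member median stayed negative when each library was left out, nearest 0 at -0.14 without wild type 3.

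**Figure D2:**
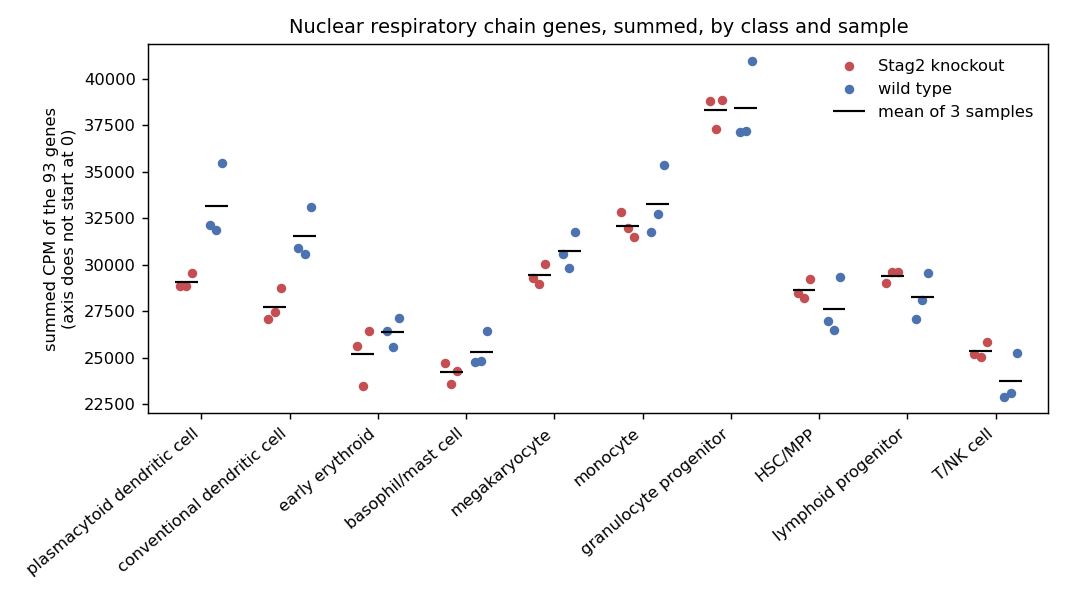
Summed CPM of the 93 members per sample (points) with group means (bars) in the 10 fitted classes, ordered by the ratio of knockout to wild type; the axis does not start at 0. The pDC-like and cDC-like classes at the left show the 3 knockout sums below all 3 wild-type sums, and the granulocyte progenitor-like class is the highest.

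The other 4 called members of pDC-like cells belong to complexes I, IV and V. Atp5f1, subunit b of the peripheral stalk that holds the catalytic head of ATP synthase, stood at 447, 395 and 411 CPM in the knockout and at 553, 539 and 544 CPM in the wild type (log2 fold change -0.41, SE 0.10, adjusted p = 0.028, edgeR). The 2 ranges were far apart. Atp5e, the epsilon subunit of the central stalk, stood at 713, 758 and 822 CPM against 986, 939 and 990.3 CPM, also without overlap (log2 fold change -0.38, SE 0.10, adjusted p = 0.047, edgeR). Ndufs8, an iron-sulfur core subunit of complex I whose promoter is printed above, had 214, 214 and 229 CPM against 249.8, 297 and 301 CPM (log2 fold change -0.40, SE 0.11, adjusted p = 0.048, edgeR). Ndufa4, named for complex I and now placed in complex IV, had 509, 505 and 558 CPM against 646, 643 and 726 CPM (log2 fold change -0.39, SE 0.10, adjusted p = 0.044, edgeR). In each of these genes the lowest wild-type sample stood above the highest knockout sample. Atp5f1 also overlaps Wdr77 on the opposite strand.

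By complex, the pDC-like sums of complex I were 8699, 8700.4 and 8902 CPM in the knockout and 9322, 9338 and 10435 CPM in the wild type, without overlap. Complex IV, which includes Cox6a2, had 8898, 8874 and 9016 CPM against 10389, 10034 and 11331 CPM, and ATP synthase 7663, 7710.1 and 7954 CPM against 8501, 8791 and 9436 CPM. Both sets of sums were apart, so the lower total was not carried by Cox6a2 alone. Complex III (3045, 3048 and 3197 against 3389, 3146 and 3585 CPM) and complex II (585, 519 and 483 against 536, 585 and 672 CPM) overlapped. Below 0 were 40 of 44 tested members of complex I, 4 of 4 of complex II, 8 of 9 of complex III, 12 of 14 of complex IV and 15 of 15 of ATP synthase. Members not below 0 included Cox4i1, the core-associated subunit IV of complex IV, at 1576, 1372 and 1503 against 1324, 1429 and 1469 CPM. Cox7a2l, a factor that joins complexes III and IV into supercomplexes, stood at 677, 634 and 705 against 617, 612 and 585 CPM; its ranges did not overlap but it did not pass the test (log2 fold change 0.12, adjusted p = 0.61, edgeR). Sdha, the flavoprotein of complex II, had a log2 fold change just below 0 and stood at 111, 106.9 and 89.7 against 91.0, 107 and 103 CPM, with overlap.

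Cell cycle genes were lower in the same pDC-like cells. Of 22 tested genes of the cell cycle list 12 were called lower and 0 higher, Top2a (48.8, 49.0 and 49.5 against 79.4, 78.1 and 99.5 CPM) and Mcm7 (44.9, 63.5 and 47.4 against 88.1, 97.6 and 85.0 CPM) among them, and the list's mean sum was 709 CPM in the knockout and 1257 CPM in the wild type, without overlap. Cells without any UMI of that list, a subset chosen after seeing the data, made up 34.3% to 40.6% of knockout and 25.7% to 34.3% of wild-type pDC-like cells. In that subset Cox6a2 stood at 723, 1009 and 773 CPM in the knockout and at 1686, 1484 and 2200 CPM in the wild type (log2 fold change -1.11, adjusted p = 0.00027, edgeR). Over all pDC-like cells the log2 fold change of Cox6a2 was -1.13. Lacking such a UMI also depends on depth, with subset medians of 3778 to 4277.5 UMIs in the knockout and 3304.5 to 4776.5 in the wild type. The part of the cell cycle in the Cox6a2 difference was not tested. In the subset the summed members were 27686, 28217 and 28602 CPM against 30639, 30399 and 34717 CPM, still apart. The member median there was -0.16, with 1 call, Cox6a2. The median of all genes and the share called in the subset are not given here, so no excess is read from that median.

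**Figure D3:**
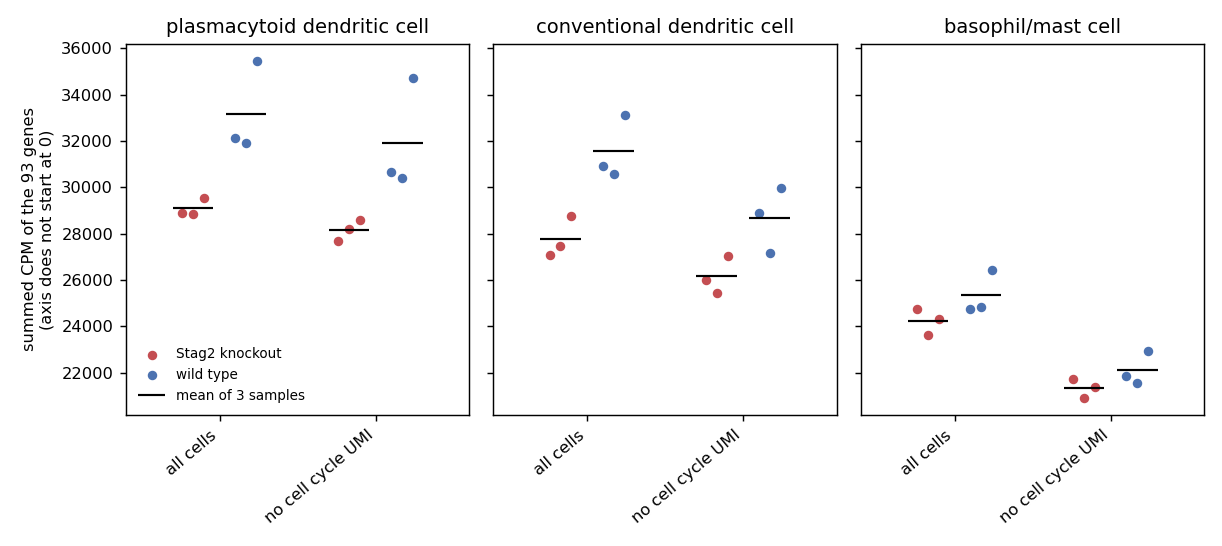
Summed CPM of the 93 members per sample (points) and group means (bars) in all cells of 3 classes and in their cells without a UMI of the cell cycle list; the axis does not start at 0. The genotypes stay apart in pDC-like cells, lie close in cDC-like cells and overlap in basophil-like cells once cells with such a UMI are left out.

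Other mitochondrial genes in pDC-like cells did not all follow the members. Cycs, which encodes the electron carrier cytochrome c, was lower at 222, 215 and 217 CPM against 289, 269 and 319 CPM (log2 fold change -0.45, SE 0.11, adjusted p = 0.028, edgeR), and it was the only call among 16 electron carriers and ATP synthase partners. The subunits encoded in mitochondrial DNA moved the other way in their sum, at a mean of 40139 CPM in the knockout and 36412 CPM in the wild type without overlap, with 0 of 12 called. Of 76 mitochondrial ribosomal proteins 2 were lower, Mrps28 and Mrpl28, and of 13 genes of the tricarboxylic acid cycle and 38 assembly factors outside the name rule none was called by edgeR. Among those, Idh3a and Fh1 had unadjusted p of 0.0035 and 0.0032, and Cox16 and Cox17 0.0055 and 0.018. None of 8 tested regulators of mitochondrial biogenesis was called by edgeR, and the smallest unadjusted p was 0.094, for Gabpb1. Markers of other cells also moved in this class: late neutrophil markers summed to a mean of 266 CPM in the knockout and 68.1 CPM in the wild type, with 3 of 3 tested higher, and basophil markers to 281 and 526 CPM, with 2 of 3 lower. Their part in the members' values was not tested.

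cDC-like cells showed the same kind of shift. Of 87 members tested 6 were lower and 0 higher, against 6.18% of 6863 genes called and 4.02% called lower. The member median was -0.22 against 0.01 for all genes, 75 of 87 were below 0 (49.1% of all genes), and 45 had the knockout below the wild type without overlap (13.8% of all genes). The share called is thus near the background, while the shares below 0 and apart are not. Summed, the members stood at 27069, 27459 and 28738 CPM in the knockout and at 30929.9, 30581 and 33134 CPM in the wild type, with no overlap and a ratio of 0.880. Complexes I, II, IV and V were each apart, and complex III overlapped. The count of 6 was 2 without knockout 1 or wild type 3, and 3 without knockout 2. With library size alone as scaling the member median was -0.23. The fit with the title prefix as a covariate rests on wild type 1 alone, so its count is not given.

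Cox6b2, the alternative form of the COX6B subunit, changed most among the called members of cDC-like cells: it stood at 26.6, 33.2 and 40.6 CPM in the knockout and at 68.5, 64.6 and 71.5 CPM in the wild type (log2 fold change -1.01, SE 0.18, adjusted p = 0.0022, edgeR). Atp5k, subunit e in the membrane part of ATP synthase, had 208, 253 and 272 CPM against 387, 341 and 395 CPM (log2 fold change -0.61, SE 0.12, adjusted p = 0.0059, edgeR). Neither gene overlapped between the genotypes. The other calls were accessory subunits of complex I: Ndufb6 (111, 119.6 and 149.5 against 156, 188 and 208 CPM), Ndufb3 (177, 169 and 174 against 228, 230.2 and 242 CPM), Ndufs5 (207, 207 and 228 against 260.3, 283 and 292 CPM) and Ndufc2, with log2 fold changes of -0.53, -0.42, -0.38 and -0.37. Ndufc2 was named outside the rule of 5 per class, after its value was seen.

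As in pDC-like cells, cell cycle genes were lower in cDC-like cells, with 13 of 23 called lower and mean sums of 679 and 1193 CPM without overlap. In cells without a UMI of that list the members' sums were 26012, 25426 and 27021 CPM against 28879, 27168 and 29977 CPM, which came close but did not overlap. Cox6b2 and Atp5k had log2 fold changes of -1.07 and -0.70 there (adjusted p = 0.19 and 0.089, edgeR). The member median was -0.15 and 0 members were called by edgeR, from 40 to 87 knockout and 30 to 86 wild-type cells per sample. For these cells too, the median of all genes and the share called are not given. Cycs was lower in the full class at 220, 274 and 274 against 511, 423 and 464 CPM (log2 fold change -0.86, SE 0.12, adjusted p = 0.00033, edgeR), as was Usmg5, a small ATP synthase partner (235, 291 and 317 against 405, 378 and 490.0 CPM, adjusted p = 0.011, edgeR). Cox17, the copper chaperone of complex IV, and Cox16, an assembly factor, were lower too, and Idh3a of the tricarboxylic acid cycle was the only call in that list. Of 12 subunits encoded in mitochondrial DNA 0 were called by edgeR, with mt-Atp8 at an unadjusted p of 0.047 and higher in the knockout on average.

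Basophil-like cells had the largest number of called members, 19 lower and 1 higher of 88 tested, against 12.4% of 9785 genes called, 8.0% lower and 4.38% higher. The member median was -0.16 against 0.01 for all genes. Per-class scaling matters here: with library size alone in place of TMM factors, an alternative chosen after seeing the data, the median of all genes moved to 0.13 and that of the members to -0.04, and the calls became 5 lower and 3 higher. CPM in the text is scaled by library size, so it shows smaller differences than the fitted values. Summed, the members stood at 24722, 23626 and 24318 CPM in the knockout and 24762, 24828 and 26435 CPM in the wild type. These sums did not overlap but lay close, with a ratio of 0.956. The count of 20 fell to 8, 10 and 9 without knockout 1, 2 and 3, to 12 without wild type 2 and to 5 without wild type 3. The fit with the title prefix as a covariate rests on wild type 1 alone, so its count is not given.

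After Cox6a2, with 3 to 22 UMIs per sample, the called members with the largest changes in basophil-like cells were Ndufa1, Atp5k, Cox7c and Ndufa3. Ndufa1, a small membrane-arm subunit of complex I, stood at 273, 282 and 277 CPM in the knockout and at 381, 379 and 406 CPM in the wild type (log2 fold change -0.61, SE 0.08, adjusted p = 6.6e-05, edgeR). Atp5k had 166, 237 and 226 CPM against 277, 255 and 299 CPM, and Cox7c, a small complex IV subunit, 573, 622 and 663 against 724, 752 and 808 CPM (log2 fold changes -0.53 and -0.42). Ndufa3, an accessory subunit of complex I, had 352, 433 and 412 CPM against 454, 469 and 512 CPM (log2 fold change -0.38). All 4 genes were lower in every knockout sample than in any wild-type sample. The remaining lower calls had log2 fold changes from -0.38 to -0.26. Sdha was the only member called higher in any class: it stood at 86.0, 92.1 and 89.8 CPM against 63.8, 69.6 and 63.7 CPM (log2 fold change 0.32, SE 0.09, adjusted p = 0.030, edgeR), and the call ended when any 1 library was left out, with adjusted p from 0.053 to 0.096.

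The basophil-like class held different clusters in the 2 genotypes: 1 cluster held 62.8% of the knockout cells but 1.26% in the wild type, and 2 others held 0.5% and 0.66% in the knockout but 44.0% and 30.6% in the wild type. In the 2 clusters that both genotypes shared, tested after seeing the data, 24 members were lower and 0 higher, with a median of -0.23. The larger of these had member sums of 26003, 25253 and 25880 CPM in the knockout and 26649, 27538 and 28988 CPM in the wild type, which were apart, and the smaller one overlapped. Cell cycle genes were lower in the class, with 14 of 28 called. In cells without such a UMI the sums overlapped, from 20902 to 21719 CPM against 21569 to 22930 CPM, and the calls were 3 lower and 1 higher. For the shared clusters and for the cells without such a UMI, the share called and the median of all genes are not given here. Of all genes 12.4% were called in the whole class, so no excess is read from either count. Basophil marker genes themselves fell in the knockout, with 7 of 12 called lower, 1 higher and a mean sum of 51322 against 89184 CPM. Among related genes in the class, the assembly factors Pet100, Cox17 and Cox16 were lower and Cmc2 higher, Slc25a4, an ADP/ATP carrier, was higher (66.7, 55.6 and 61.3 against 38.2, 37.9 and 36.2 CPM), and mt-Nd2 was the only 1 of 13 subunits encoded in mitochondrial DNA that was called, higher in the knockout. The part of cluster makeup and of the marker shift in the members' values was not tested.

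**Figure D4:**
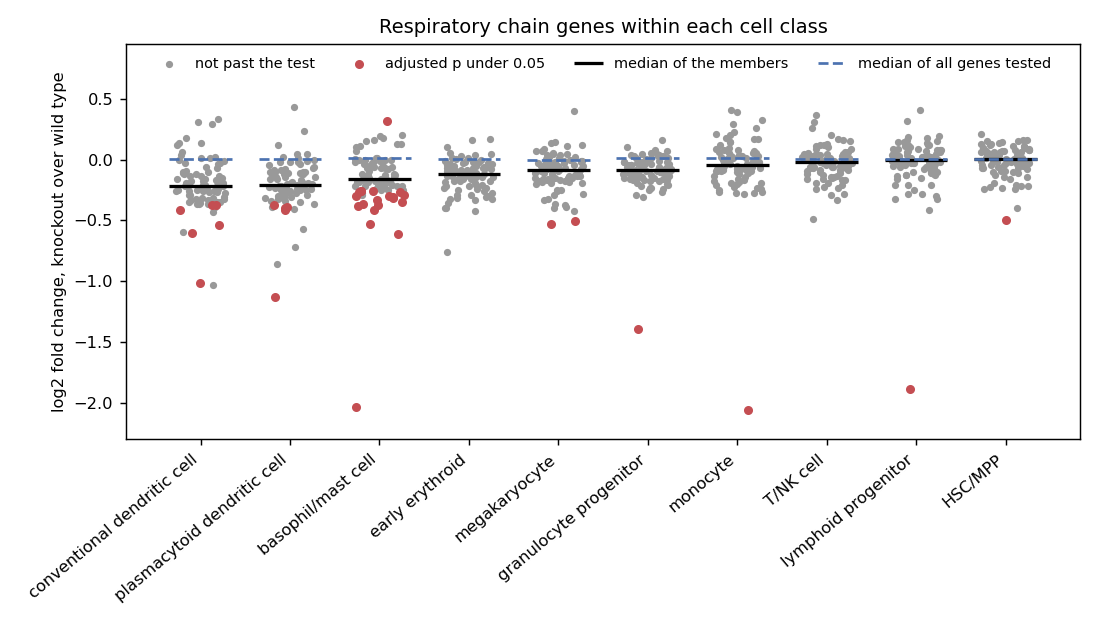
Log2 fold change of knockout over wild type for each tested member in 10 classes (points; red for adjusted p under 0.05), with the median of the members (black line) and of all genes tested (dashed blue line). The member median lies below the all-gene median by most in the cDC-like, pDC-like and basophil-like classes, and the lowest called point of the pDC-like, basophil-like, granulocyte progenitor-like, monocyte-like and lymphoid progenitor-like classes is Cox6a2.

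Cox6b2 was the second isoform that stood out across classes. Among the 10 tested classes its highest level was in early erythroid-like cells, at 269, 194 and 241 CPM in the knockout and 344, 297 and 279 CPM in the wild type, which did not overlap but did not pass the test (log2 fold change -0.42, adjusted p = 0.074, edgeR). In late erythroid-like cells, too few for a test, it stood higher still, at 457, 399 and 392 CPM in the knockout and 395, 499 and 420.3 CPM in the wild type, with overlap. Next among the tested classes came megakaryocyte-like cells, with means of 103 and 131 CPM, and HSC/MPP-like cells (stem cells and multipotent progenitors), whose levels overlap those of granulocyte and lymphoid progenitor-like cells. In HSC/MPP-like cells it stood at 89.8, 74.3 and 80.3 CPM in the knockout and at 101, 116 and 116 CPM in the wild type (log2 fold change -0.50, SE 0.10, adjusted p = 0.0095, edgeR). It was the only call among 87 members there, against 1.97% of 9717 genes in either direction and 1.62% lower. That count was 0 without wild type 2 or 3 and 2 without knockout 1, knockout 2 or wild type 1. The fitted log2 fold change of Cox6b2 was below 0 in 10 of 10 classes, from -1.01 to -0.05, and it passed the test in 2; in basophil-like cells its CPM was higher on average in the knockout, at 70.2 against 67.7. As a share of the UMIs of Cox6b1 and Cox6b2, it made up 28.0% ± 1.66 of early erythroid-like UMIs in the knockout and 32.8% ± 2.25 in the wild type (SD, n = 3). In HSC/MPP-like cells the shares were 10.6% ± 1.12 and 15.2% ± 1.01, and in cDC-like cells 4.53% ± 1.03 and 8.04% ± 0.202, each without overlap. Cox6b1, by contrast, had a log2 fold change of 0.01 over all kept cells (803, 770.5 and 778 against 729, 735 and 809 CPM, overlapping).

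**Figure D5:**
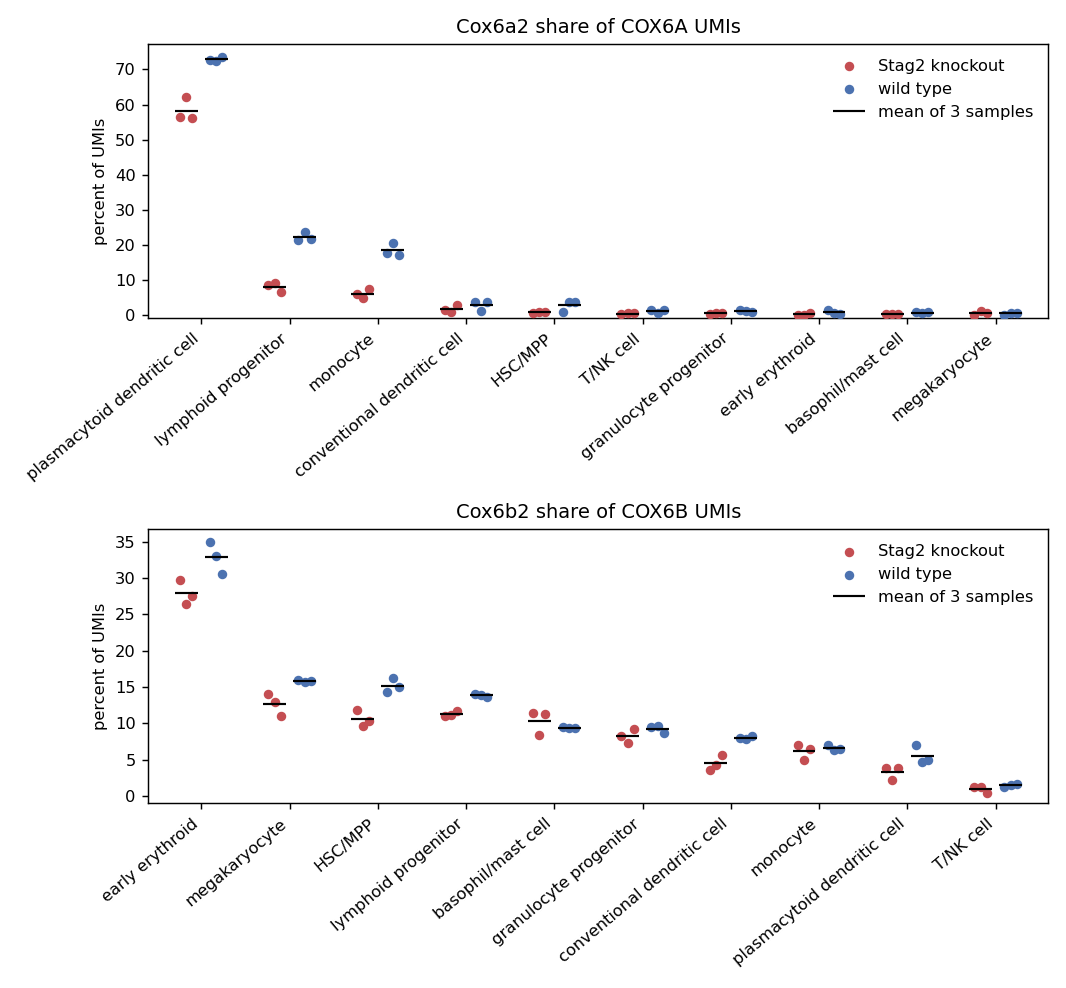
Cox6a2 as a percentage of the UMIs of Cox6a1 and Cox6a2 (top), and Cox6b2 as a percentage of those of Cox6b1 and Cox6b2 (bottom), per sample (points) with group means (bars). Among these classes Cox6a2 is the larger share only in the pDC-like one, and Cox6b2 is highest in the early erythroid-like class.

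The remaining classes held few calls. In megakaryocyte-like cells 2 of 85 members were lower, against 0.935% of 5773 genes in either direction and 0.693% lower: Cox7b, a small complex IV subunit, at 332, 307 and 368 against 491, 457 and 479 CPM (log2 fold change -0.53, SE 0.11, adjusted p = 0.011, edgeR), and Atp5o, the subunit that joins the stalk of ATP synthase to its head, at 247, 261 and 277 against 302, 357 and 403 CPM (log2 fold change -0.50, SE 0.12, adjusted p = 0.026, edgeR). Neither overlapped. Annotated entries at chr16:91684398-91926982 and chr16:91925214-91931687 both carry the symbol Atp5o. Under that symbol the gene shares its locus with Cryzl1 and Donson on the same strand, so its reads are uncertain. The count was 0 without knockout 1, knockout 2 or wild type 3, and 1 without knockout 3 or wild type 2. Early erythroid-like cells had 0 calls of 87 by edgeR and by DESeq2, against 2.15% of 7626 genes, with 14 members lower at an unadjusted p under 0.05, a median of -0.12, and 1 call without knockout 1. T and NK-like cells had 0 of 85 by both tools, against 2.95% of 7572 genes, with 3 members lower and 2 higher at an unadjusted p under 0.05; its largest cluster held 61.8% of the knockout cells, and a different one held the most in the wild type. In granulocyte progenitor-like cells Cox6a2 was the only call of 88, against 2.14% of 9666 genes in either direction and 1.61% lower, and the count was 0 without knockout 1, knockout 3, wild type 2 or wild type 3 and 2 without wild type 1. Their summed members were the highest of the 10 classes, at 38812, 37298 and 38846 CPM in the knockout and 37168, 37217 and 40976 CPM in the wild type. T and NK-like cells (25191, 25042 and 25856 against 22921, 23094 and 25242 CPM) overlapped and lay near the basophil-like and early erythroid-like sums at the low end. Some complex sums were higher in the knockout without overlap. They were complex II (387, 405 and 437 against 323, 334 and 332 CPM) and complex V in T and NK-like cells, and complex V in lymphoid progenitor-like cells. Complex II in early erythroid-like and complex V in megakaryocyte-like cells were lower without overlap. Among members whose CPM did not overlap, 2 of 17 in HSC/MPP-like and 1 of 20 in T and NK-like cells were lower in the knockout. So were 4 of 25 in lymphoid progenitor-like and 3 of 9 in granulocyte progenitor-like cells. In monocyte-like, early erythroid-like and megakaryocyte-like cells 16 of 23, 12 of 13 and 12 of 13 were lower. The share over all genes is not given for these classes, so no excess is read. Wild type 3, the library with the lowest median depth, had the highest wild-type sum in each of the 10 classes.

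Over the 10 classes, 36 of 869 tested pairs of class and member were called lower and 1 higher. Of all genes, from 0.935% (megakaryocyte-like) to 12.4% (basophil-like) were called per class, and 20 of the member calls lay in basophil-like cells. No excess of calls is read from these counts. The calls fell on 28 members, of which 6 were called in more than 1 class: Cox6a2 in 5, and Atp5k, Cox6b2, Ndufb3, Ndufb6 and Ndufs5 in 2 each. Of the 83 members tested in all 10 classes, 15 had a TMM-scaled log2 fold change below 0 in each, against 3.33% of the 4950 genes tested in all of them. They were, chosen here after their values were seen, Atp5k, Atp5o, Cox6a1, Cox6b2, Cox7c, Ndufa2, Ndufa3, Ndufa4, Ndufa7, Ndufaf8, Ndufb4, Ndufb10, Ndufc1, Ndufc2 and Ndufs8. The direction depends on TMM scaling for many of them. Mean CPM was higher in the knockout for Cox6b2 in basophil-like cells. In T and NK-like cells it was higher for Atp5o, Cox7c, Ndufa4, Ndufb4, Ndufb10, Ndufc1 and Ndufs8 and lower for the others. For Ndufs8 the fitted value nearest 0 was -0.0009. Cox6a2 was below 0 in each of the 6 classes where it was tested. In basophil-like cells it passed the count filter only through the wild-type samples, so that class and its call add no support. Among fitted classes where it was not tested, its mean was 1.96 against 1.99 CPM in megakaryocyte-like cells. That mean was lower in the knockout in HSC/MPP-like, T and NK-like and early erythroid-like cells. Core subunits of complexes I and III and of the ATP synthase head varied: Ndufv1 and Uqcrfs1 were below 0 in 9 of 10 classes, Uqcrc1 and Cyc1 in 7, Ndufs1 in 4, and Atp5b and Atp5a1, the beta and alpha subunits of the head, in 6 and 4, none of them with a call. Over all kept cells Ndufs1 and Ndufv1 of the complex I electron path, Uqcrc1 and Uqcrfs1 of complex III, Cyc1 (cytochrome c1), Cox4i1, Cox8a, Cox7a2 and Sdhd all had overlapping levels, with log2 fold changes from -0.08 to 0.07. Sdhc and Sdha were higher on average without passing the test (0.05 and 0.12). Cox4i2 and Cox7a1, tissue isoforms of complex IV, stood at 1.49 to 3.26 and 1.26 to 1.87 CPM, with no call.

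Whether the genotype effect of a class differed from the mean of the other classes was tested with limma on 4950 genes, 83 members among them; Cox6a2 was not in this test because it was not measurable in every class. In pDC-like cells 2 members had a lower effect than in the other classes and 0 a higher one, against 2.2% of all genes: Atp5f1 (difference of log2 effects -0.36, SE 0.08) and Atp5e (-0.27). In cDC-like cells 11 effects were lower and 1 higher, against 7.6% of genes, with Cox6b2 at -0.61 and Atp5k at -0.39. In basophil-like cells the counts were 20 and 2, against 13.8%, led by Ndufa1 at -0.48. HSC/MPP-like cells had 1 member with a lower and 13 with a higher effect, against 4.2%, and lymphoid progenitor-like cells 1 and 9, against 5.52%. A higher effect can be a smaller fall or a rise. The median log2 fold changes of the members in these 2 classes were 0.0016 and -0.0054. Megakaryocyte-like Cox7b was the only member called in that class (-0.47), against 0.141% of genes. T and NK-like cells had 1 member with a lower and 3 with a higher effect (4.24% of genes), monocyte-like cells 0 and 2 (0.687%), and early erythroid-like and granulocyte progenitor-like cells 0 by limma (0.566% and 0.626%), where the smallest unadjusted p was 0.013 for Ndufa1 and 0.0047 for Atp5l. The total of 67 called pairs was 43 without knockout 1, 40 without wild type 2 and 34 without wild type 3.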

How the data were processed

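Per the labels' protocols, Lin- cells went through droplet-based single-cell 3′ RNA sequencing of polyA RNA, and the authors deposited 1 table per library of raw UMI counts per cell and gene. No source used here names the aligner, genome build or strand setting. Cells with under 500 genes (1329) or over 20% mitochondrial UMIs and 891 putative doublets (set at 0.8% per 1000 cells) were removed. Cells were clustered with Leiden (leidenalg 0.10.2, resolution 1.0, 2000 variable genes, 30 components, 15 neighbours) into 29 clusters, named from marker lists. UMI counts were summed per library and class, with at least 20 cells in every library, and tested in R 4.3.3 with edgeR 4.0.16 (quasi-likelihood, TMM factors, Benjamini-Hochberg adjusted p threshold 0.05, over all genes that passed edgeR's count filter). DESeq2 1.42.0 was an alternative, and limma 3.58.1 compared effects between classes. CPM is UMIs per 1000000 UMIs of the class and library, without TMM factors, so it can differ from the fitted fold changes. The main test had no covariate. The alternatives were DESeq2, no count filter, the title prefix as a covariate, only cells with 2000 UMIs, and each library left out, and the rest were chosen after seeing the data.

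Tested on simulated counts, the edgeR step over all kept cells (12635 genes) recovered 92 of 100 genes changed 2-fold and 46 of 100 changed 1.4-fold with 6 false calls, and in pDC-like cells (7029 genes) 71 and 16 with 5. In megakaryocyte-like cells (5773 genes) it recovered 65 and 23 with 3. Libraries held 2385 to 6407 kept cells and 15570846 to 34221346 UMIs. The p-values measure the spread between these libraries. Members and lists were chosen with earlier results of these data known. Named were up to 12 called members each way over all cells, up to 5 each way per class, a fixed set of catalytic subunits and isoforms, the 5 genes most like Cox6a2 and up to 4 genes per other list. Promoters and gene positions are from RefSeq (GRCm38.p6) and GENCODE (GRCm38). Of 29 called members 13 overlap another annotated gene, 3 on the same strand.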

Additional observations from a re-analysis of the deposited data

Results flagged for a closer look

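In each result listed here, the genotype effect of a member in a class differed from its mean effect in the other classes by limma's test of that difference (adjusted over 4950 genes within each class). In basophil-like cells the log2 effect lay below that of the other classes by -0.48 for Ndufa1, -0.31 for Atp5k, -0.23 for Cox7c and -0.20 for Ndufa3. In cDC-like cells the difference was -0.61 for Cox6b2 and -0.39 for Atp5k. Megakaryocyte-like Cox7b differed by -0.47, and in pDC-like cells Atp5f1 differed by -0.36 and Atp5e by -0.27. Each of these genes was lower in every knockout sample than in any wild-type sample of its class. They were listed from named members already called lower in that class, so the lack of overlap is not separate support. Members with a higher effect than in the other classes, such as 13 in HSC/MPP-like and 9 in lymphoid progenitor-like cells, are not listed.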

How the results depend on the processing

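Cox6a2 in pDC-like cells kept its direction and adjusted p under 0.05 in all 16 alternatives (doublets kept: -0.98), and its share of cells differed by -23.2 to -19.8 points with a library left out. Counts of 1 called member in lymphoid progenitor-like and monocyte-like cells did not move. Over 23 called results for named members in a class or over all cells, 169 of 279 alternatives kept the call, 110 lost it and 0 turned its direction. Over 20 named members not called over all cells, 1 of 280 alternatives gave a call, and the sign turned in 40, over 16 of the members. Counts that moved by over 1.5 times were as follows. DESeq2 gave 2 in cDC-like (main 6), 1 in pDC-like (5), 0 in megakaryocyte-like (2) and 2 in granulocyte progenitor-like cells (1). Without the count filter the counts were 1 over all kept cells (2), 2 in HSC/MPP-like (1), 1 in T and NK-like (0), 15 in cDC-like, 4 in early erythroid-like (0), 2 in granulocyte progenitor-like and 8 in pDC-like cells. The title prefix as covariate is 1 of the alternatives counted above. With it the genotype effect rests on wild type 1 alone, so its counts of calls are not given. Library size alone gave 1 over all cells, 8 in basophil-like (20), 1 in megakaryocyte-like and 2 in pDC-like cells. Cells without a cell cycle UMI gave 4 in basophil-like, 0 in cDC-like and 1 in pDC-like cells. With 1 library left out, counts ranged from 1 to 1 over all cells, 0 to 2 in HSC/MPP-like, 5 to 18 in basophil-like, 2 to 8 in cDC-like, 0 to 1 in early erythroid-like, 0 to 2 in granulocyte progenitor-like and megakaryocyte-like and 1 to 6 in pDC-like cells, and from 34 to 51 for differences between classes (67). The cause of these moves was not tested. No paired analysis was possible because the labels give the genotypes no shared replicate numbers; the numbers used here follow the order of deposit.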

Other observations

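Outside the respiratory chain, genes of other lists moved in the same classes. Of 84 cytosolic ribosomal protein genes tested in basophil-like cells, 11 were higher and 1 was lower in the knockout, with a median log2 fold change of 0.12 against 0.01 for all genes. That share of calls is near the 12.4% of all genes called in the class, and with library size alone as scaling the median of all genes was 0.13. Rps2, a protein of the small ribosomal subunit, stood there at 2701, 2516 and 2490.1 CPM in the knockout and at 2032, 1634 and 1703 CPM in the wild type. Rpl35, of the large subunit, was called lower in basophil-like, cDC-like and pDC-like cells; in the last it stood at 1725, 2199 and 1776 CPM against 2975, 2926 and 3354 CPM (log2 fold change -0.73, SE 0.11, adjusted p = 0.00058, edgeR). It was the only 1 of 84 called in pDC-like cells. In basophil-like cells 5 of 8 tested genes of the immediate early and dissociation stress list were lower, Junb among them (63.0, 61.3 and 66.2 against 83.1, 93.6 and 83.4 CPM). Ddit4, an inhibitor of mTORC1 signalling listed with the hypoxia response, was lower in the same cells at 16.6, 17.9 and 14.6 CPM against 31.5, 44.9 and 37.5 CPM (log2 fold change -1.38, SE 0.15, adjusted p = 6.9e-06, edgeR) and was the only 1 of 9 called. In pDC-like cells none of 6 stress or 6 hypoxia genes was called by edgeR, with smallest unadjusted p of 0.048 for Klf6 and 0.0021 for Ddit4.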
